A study of Mus musculus with 24 samples.

Results

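The genes described here encode enzymes that modify foreign and endogenous small molecules in the lung: the cytochrome P450 genes (*Cyp*), the flavin monooxygenases (*Fmo*), the glutathione transferases (*Gst*), the UDP-glucuronosyltransferases (*Ugt*), the sulfotransferases (*Sult*), the aldehyde dehydrogenases (*Aldh*), the carboxylesterases (*Ces*) and *Inmt*, which encodes indolethylamine N-methyltransferase. Members were chosen by gene symbol from the array rows that name exactly 1 gene, and 3 retinoid genes (*Aldh1a1*, *Aldh1a2* and *Cyp26b1*) were left out. This gave 169 genes of the 19938 genes with such a row. A gene with several rows was read from its brightest row, which applied to 3 members. Another 18 rows named a member together with other genes and were not used. Values are RMA levels on the log2 scale, so that a difference of 1 is 2-fold.

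The RNA came from whole left lung lobes of male mice of a congenic C57Bl/6N Tac background. *Scnn1b*-Tg mice, which carry an airway transgene for the beta subunit of the epithelial sodium channel driven by the club cell promoter of *Scgb1a1*, and their wild-type (WT) littermates were studied at postnatal day (PND) 0, 3, 10 and 42, in a specific pathogen free facility. Each of the 8 groups had 3 arrays, 24 in all, and each array held a pool of mice of the same age and genotype. The methods describe every sample as a pool of 3 mice, whereas the labels list 2 animals for 23 arrays and 1 animal for *Scnn1b*-Tg PND 42 replicate 3. p values measure the spread between such pools and not between single mice.

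Phase I enzymes such as the P450s and flavin monooxygenases oxidize lipophilic compounds, and phase II enzymes join the products to glutathione, sulfate, glucuronate or methyl groups. In mouse lung much of the P450 protein lies in club cells of the bronchioles, and this makes these cells a target of compounds such as naphthalene that the enzymes activate. Many of these genes are best known from liver, where nuclear receptors and the aryl hydrocarbon receptor control a number of them.

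The upstream regions of the members on which the results turn are shown because these genes carried the late change of the family or ran against it. They are the 250 bases before a RefSeq transcription start, taken from the GRCm38.p6 tables, on the strand of the gene and 5′ to 3′. Capitals mark GCGTG, the core of an aryl hydrocarbon response element, TGACNNNGC, the core of an antioxidant response element, and TATAAA, each on either strand. *Cyp1a1* (chr9:57697363-57697612, plus strand), *Cyp2b10* (chr7:25897408-25897657, plus strand), *Inmt* (chr6:55174991-55175240, minus strand), *Gstm1* (chr3:108017819-108018068, minus strand, its second listed start) and *Sult1d1* (chr5:87569007-87569256, minus strand) rose between PND 10 and PND 42 in WT lungs. *Gstm5* (chr3:107895604-107895853, plus strand) is a neighbour of *Gstm1* that fell.
Cyp1a1: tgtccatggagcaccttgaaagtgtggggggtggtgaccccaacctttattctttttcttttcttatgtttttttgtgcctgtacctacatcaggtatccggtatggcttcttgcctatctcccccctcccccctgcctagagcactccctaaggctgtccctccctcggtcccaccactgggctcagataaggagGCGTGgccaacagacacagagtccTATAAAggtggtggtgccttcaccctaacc
Cyp2b10: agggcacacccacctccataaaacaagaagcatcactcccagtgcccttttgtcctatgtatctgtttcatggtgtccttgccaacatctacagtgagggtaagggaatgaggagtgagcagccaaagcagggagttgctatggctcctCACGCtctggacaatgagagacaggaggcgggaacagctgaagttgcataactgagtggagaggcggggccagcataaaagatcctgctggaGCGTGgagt
Inmt: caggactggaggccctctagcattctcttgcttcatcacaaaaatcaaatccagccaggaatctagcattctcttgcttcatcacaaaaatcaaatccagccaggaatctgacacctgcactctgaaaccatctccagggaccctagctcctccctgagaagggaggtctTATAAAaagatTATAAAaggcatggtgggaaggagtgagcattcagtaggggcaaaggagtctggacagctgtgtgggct
Gstm1: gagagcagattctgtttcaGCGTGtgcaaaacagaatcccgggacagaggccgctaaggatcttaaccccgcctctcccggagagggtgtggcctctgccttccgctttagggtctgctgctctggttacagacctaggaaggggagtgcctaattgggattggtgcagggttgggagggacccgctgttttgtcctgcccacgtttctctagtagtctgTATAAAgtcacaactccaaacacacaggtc
Sult1d1: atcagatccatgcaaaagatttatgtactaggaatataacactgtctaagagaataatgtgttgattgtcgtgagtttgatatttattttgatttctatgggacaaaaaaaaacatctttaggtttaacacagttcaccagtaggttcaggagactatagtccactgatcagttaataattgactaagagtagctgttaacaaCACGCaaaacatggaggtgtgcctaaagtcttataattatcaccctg
Gstm5: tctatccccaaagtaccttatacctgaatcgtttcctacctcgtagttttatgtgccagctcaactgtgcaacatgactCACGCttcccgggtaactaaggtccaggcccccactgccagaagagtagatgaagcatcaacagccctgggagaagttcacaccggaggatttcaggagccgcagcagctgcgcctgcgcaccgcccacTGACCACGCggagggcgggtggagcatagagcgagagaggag

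*Cyp1a1* had GCGTG 54 bases and TATAAA 30 bases upstream of its start, and the second listed start of *Gstm1* also had TATAAA at 30 bases. The first listed start of *Gstm1*, not shown, had GCGTG at 76 bases and no TATAAA. The promoter of *Gstm3*, which also rose and is not shown, had no GCGTG, TGACNNNGC or TATAAA. *Inmt* had TATAAA at 80 and 69 bases. In *Gstm5* the GCGTG that begins 38 bases upstream lies inside the TGACNNNGC that begins at 42 bases. *Sult1d1* had GCGTG at 47 bases, on the opposite strand. A promoter was listed for 132 of the 169 members, 153 promoters in all. GCGTG was in 19.0% of the members' promoters and in 28.2% of all 32851 RefSeq promoters over the same 250 bases. TGACNNNGC was in 4.58% of the members' promoters against 10.2% of all, AGGTCA, a core that many nuclear receptors bind, in 20.9% against 14.0%, and TATAAA in 23.5% against 12.4%. Of the 20 members that rose in WT lungs between PND 10 and PND 42, 17 had a promoter. GCGTG was found for 4 of them (*Cyp1a1*, *Cyp2b10*, *Gstm1* and *Sult1d1*), TGACNNNGC for 1 (*Gsta3*), AGGTCA for 4 (*Aldh3b1*, *Cyp2b9*, *Cyp2f2* and *Fmo2*) and TATAAA for 5 (*Ces1g*, *Cyp1a1*, *Cyp2e1*, *Gstm1* and *Inmt*). These are letter matches and not measured binding.

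The labels were checked on *Scnn1b* itself, which lay between 9.62 and 10.94 in *Scnn1b*-Tg arrays and between 6.37 and 8.22 in WT arrays. Medians of the arrays over all their rows lay between 4.787 and 4.996. Arrays of a group correlated at 0.965 or above over all array rows in every group except *Scnn1b*-Tg PND 42, where replicates 1 and 3 correlated at 0.912. Group means were fitted in limma to all 24 arrays, and calls needed a change of at least 2-fold and a p, adjusted by Benjamini-Hochberg over the 21789 tested rows, no higher than 0.05. Club cell markers were bright throughout, with *Scgb1a1* between 11.58 and 14.11 in all arrays. The liver marker *Alb* varied between arrays of a group. It was above 6 in 7 of the 24 arrays, at 7.86 and 6.2048 in *Scnn1b*-Tg PND 10 replicates 2 and 1, 6.30 in *Scnn1b*-Tg PND 0 replicate 1, 9.65 in WT PND 0 replicate 1, 7.72 and 7.58 in WT PND 3 replicates 1 and 3, and 6.11 in WT PND 42 replicate 3. At PND 42 *Alb* lay between 3.9997 and 4.2107 in *Scnn1b*-Tg arrays and between 3.92 and 6.11 in WT arrays. Since whole lobes were used, a change in the number of cells of a type and a change of RNA per cell cannot be told apart.

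Most members were dim in lung. The group mean exceeded 5 in at least 1 group for 66 of the 169 members, and 103 stayed at or below it. Of all 19938 genes, 11932 exceeded it. Among glutathione transferases 15 of 18 exceeded it and among aldehyde dehydrogenases 14 of 19, against 9 of 45 *Cyp2* genes, 6 of 16 *Cyp4* genes, 6 of 16 carboxylesterases, 3 of 16 sulfotransferases, 2 of 8 glucuronosyltransferases and 0 of 6 *Cyp3* genes. All 8 glucuronosyltransferases were *Ugt2* genes, and no *Ugt1* gene was a member. The *Cyp3* genes, which in liver encode major drug oxidases, reached at most 4.998 in any group mean.

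**Figure D1:**
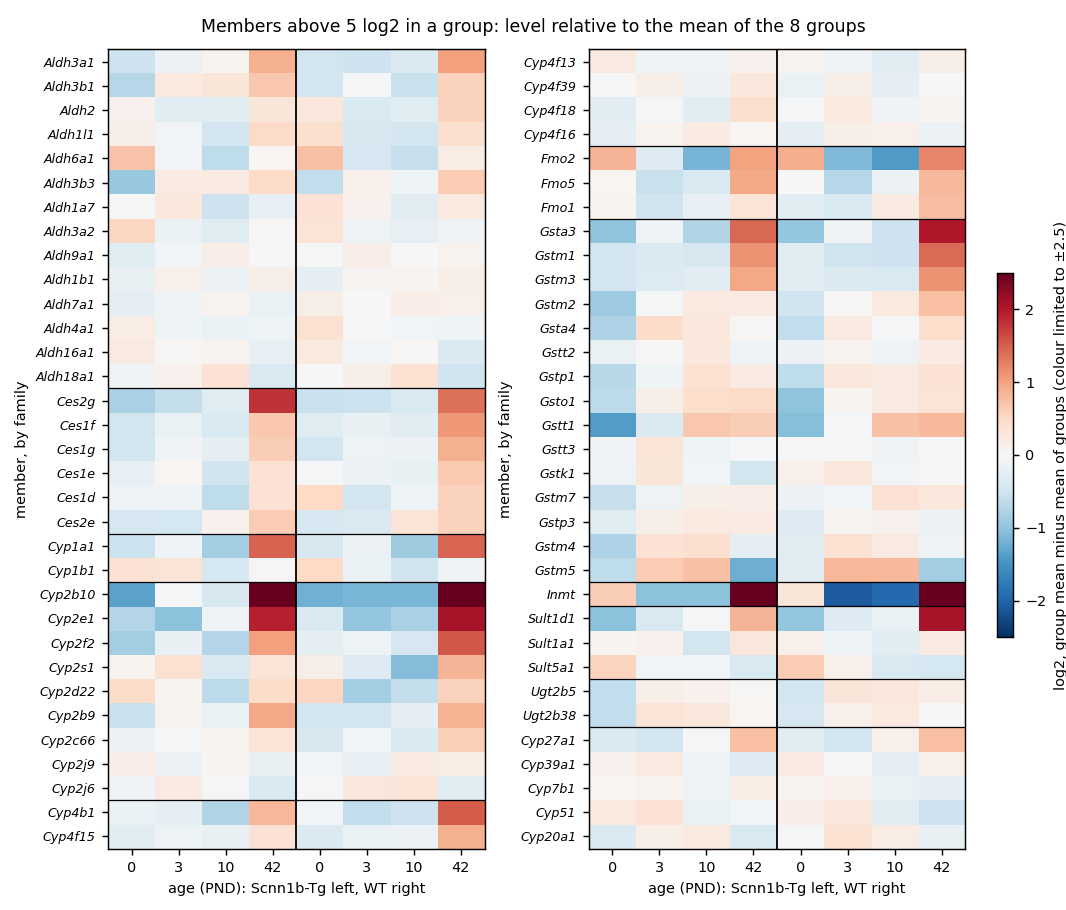
Group means of the 66 members above 5 log2 in a group, each row relative to the mean of the 8 groups (colour, log2), by age in PND for *Scnn1b*-Tg (left columns) and WT (right columns), ordered by family. The PND 42 columns are red for *Cyp2b10*, *Cyp2e1*, *Cyp2f2*, *Inmt*, *Fmo2*, *Gsta3* and *Ces2g* in both genotypes, and blue for *Gstm5*.

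At the 2-fold limit more members were called between PND 10 and PND 42 than in the earlier steps. In *Scnn1b*-Tg lungs 16 members rose and 1 fell, 10.1% of the members, against 5.17% of all tested rows called in that comparison. In WT lungs 20 members rose and 1 fell, 12.4% of the members, against 5.54% of all tested rows. The direction differed from that of the array as a whole: 1.79% of all rows rose and 3.38% fell in *Scnn1b*-Tg lungs, and 1.7% rose and 3.84% fell in WT lungs. Over all 169 members the median change was 0.12 in *Scnn1b*-Tg lungs and 0.13 in WT lungs, and over all rows -0.02 and -0.03. Both genotypes shared 14 of the rises, which are 14 of 16 in *Scnn1b*-Tg and 14 of 20 in WT lungs. *Fmo5* and *Cyp4a12b* were called in *Scnn1b*-Tg lungs alone, and *Aldh3a1*, *Aldh3b1*, *Ces1g*, *Cyp2s1*, *Cyp4f15* and *Sult1d1* in WT lungs alone. Only for *Sult1d1* and *Cyp2s1* did the difference between the genotypes itself pass the test.

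**Figure D2:**
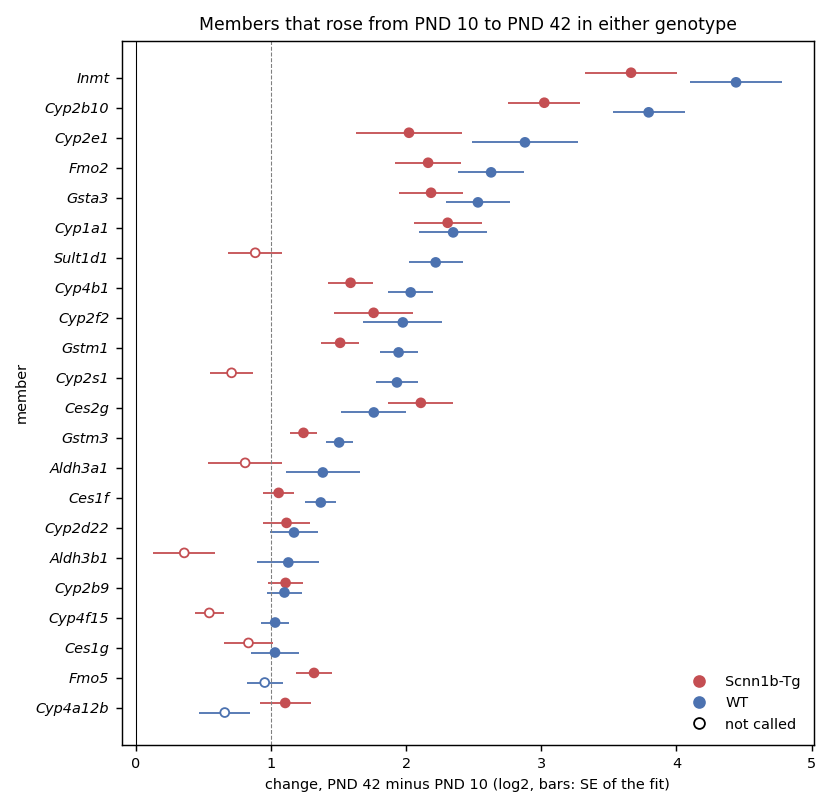
Change from PND 10 to PND 42 (x axis, log2, bars are the SE of the fit) of the 22 members that rose in either genotype, *Scnn1b*-Tg above WT in each row, with open points for changes that were not called and a dashed line at 2-fold. *Inmt* and *Cyp2b10* changed most. The members were chosen by a call in either genotype, so the drawn changes do not measure a general difference between the genotypes. Only *Sult1d1* and *Cyp2s1* differed by the test.

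Among the P450s, *Cyp2b10*, which oxidizes many drugs and is induced in mouse liver through the constitutive androstane receptor, changed most. Its arrays read 9.89, 9.82 and 10.16 at PND 42 in *Scnn1b*-Tg lungs, against 7.10, 6.95 and 6.75 at PND 10. In WT lungs they read 10.04, 9.97 and 9.91 at PND 42, against 6.47, 5.90 and 6.18 at PND 10. The ages did not overlap in either genotype. The rise was 3.02 (SE 0.27, 8.12-fold, limma with Benjamini-Hochberg adjusted p = 6.63e-08) in *Scnn1b*-Tg lungs and 3.79 (SE 0.27, 13.9-fold, adjusted p = 1.39e-09) in WT lungs. Its close relative *Cyp2b9* rose by 1.11 (SE 0.13) and 1.10 (SE 0.13), with adjusted p = 2.11e-06 and 2.04e-06 by the same limma test. The probes of such near-identical genes may read each other's RNA, which was not tested.

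*Cyp2f2*, the club cell P450 that activates naphthalene in mouse, was bright at every age. *Scnn1b*-Tg arrays read 11.77, 11.68 and 12.06 at PND 42, against 10.09, 10.15 and 9.99 at PND 10. In WT lungs it read 12.63, 12.27 and 12.22 at PND 42, against 10.48, 10.24 and 10.47 at PND 10. It rose by 1.76 (SE 0.29, limma with Benjamini-Hochberg adjusted p = 9.84e-05) in *Scnn1b*-Tg lungs and by 1.98 (SE 0.29, adjusted p = 2.74e-05) in WT lungs. *Cyp4b1*, which activates the lung toxicant ipomeanol, rose by 1.59 (SE 0.17, adjusted p = 6.57e-07 by limma) and by 2.03 (SE 0.17, adjusted p = 1.64e-08). At PND 42 *Cyp4b1* arrays read 8.96, 9.31 and 8.92 in *Scnn1b*-Tg lungs and 9.97, 9.67 and 9.57 in WT lungs, which do not overlap, but the difference of -0.68 (SE 0.17, limma with Benjamini-Hochberg adjusted p = 0.0591) did not pass the test.

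*Cyp1a1*, which oxidizes polycyclic aromatic hydrocarbons and is the classical target of the aryl hydrocarbon receptor, was dim until PND 10. *Scnn1b*-Tg arrays read 6.47, 6.16 and 5.77 at PND 42, against 3.70, 4.002 and 3.78 at PND 10. In WT lungs it read 6.79, 5.95 and 5.64 at PND 42, against 3.58, 3.88 and 3.88 at PND 10. The rise was 2.31 (SE 0.25, limma with Benjamini-Hochberg adjusted p = 8.72e-07) in *Scnn1b*-Tg lungs and 2.348 (SE 0.25, adjusted p = 5.98e-07) in WT lungs. *Cyp1b1*, of the same family, did not pass, with changes of 0.47 (SE 0.22) and 0.42 (SE 0.22). The receptor gene *Ahr* was not called either, and averaged 7.29 at PND 42, against 7.54 at PND 10, in *Scnn1b*-Tg lungs and 7.14, against 7.89, in WT lungs.

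*Cyp2e1*, which oxidizes ethanol and small solvents, rose by 2.02 (SE 0.39, limma with Benjamini-Hochberg adjusted p = 4.73e-04) in *Scnn1b*-Tg lungs and by 2.88 (SE 0.39, adjusted p = 1.13e-05) in WT lungs. In *Scnn1b*-Tg lungs it read 7.01, 7.98 and 7.46 at PND 42, against 5.23, 6.37 and 4.78 at PND 10, and in WT lungs 6.95, 7.99 and 7.89, against 4.92, 4.37 and 4.9017. Before PND 42 the highest *Cyp2e1* arrays were those with the most *Alb*: *Scnn1b*-Tg PND 10 replicate 2, with 6.37, and WT PND 0 replicate 1, with 6.12. The next 2 arrays in *Alb*, WT PND 3 replicates 1 and 3, read 4.62 and 4.83 for *Cyp2e1*. The part of liver RNA in these values was not tested. The 4 liver markers with a row had summed log2 levels between 17.37 and 17.98 at PND 42 in *Scnn1b*-Tg arrays, against 17.84 to 22.48 at PND 10, and between 17.47 and 19.63 in WT arrays, against 18.05 to 19.62. *Apoa1*, *Apob* and *Fgb* were all below 5 at PND 42.

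Another 3 P450 genes were called in this step besides *Cyp2s1*, which is described with the genotypes. *Cyp2d22* rose by 1.11 (SE 0.175, adjusted p = 5.34e-05 by limma with Benjamini-Hochberg adjustment) in *Scnn1b*-Tg and 1.17 (SE 0.175, adjusted p = 2.96e-05) in WT lungs. *Cyp4f15*, of a subfamily that hydroxylates fatty acids and leukotrienes, was called in WT lungs alone, at 1.03 (SE 0.11), against 0.54 (SE 0.11) in *Scnn1b*-Tg lungs, and its WT change was 0.98 without WT PND 10 replicate 2 and 0.96 without WT PND 42 replicate 1, under 2-fold. *Cyp4a12b* was called in *Scnn1b*-Tg lungs alone, at 1.11 (SE 0.19), and read 4.31, 4.35 and 5.34 there at PND 42. Without replicate 3 of that group its change was 0.77. Of the 12 *Cyp2c* genes in a run on chromosome 19 and the 16 P450 genes outside families 1 to 4, such as *Cyp27a1* and *Cyp51* of sterol metabolism, 0 were called in either genotype between PND 10 and PND 42.

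**Figure D3:**
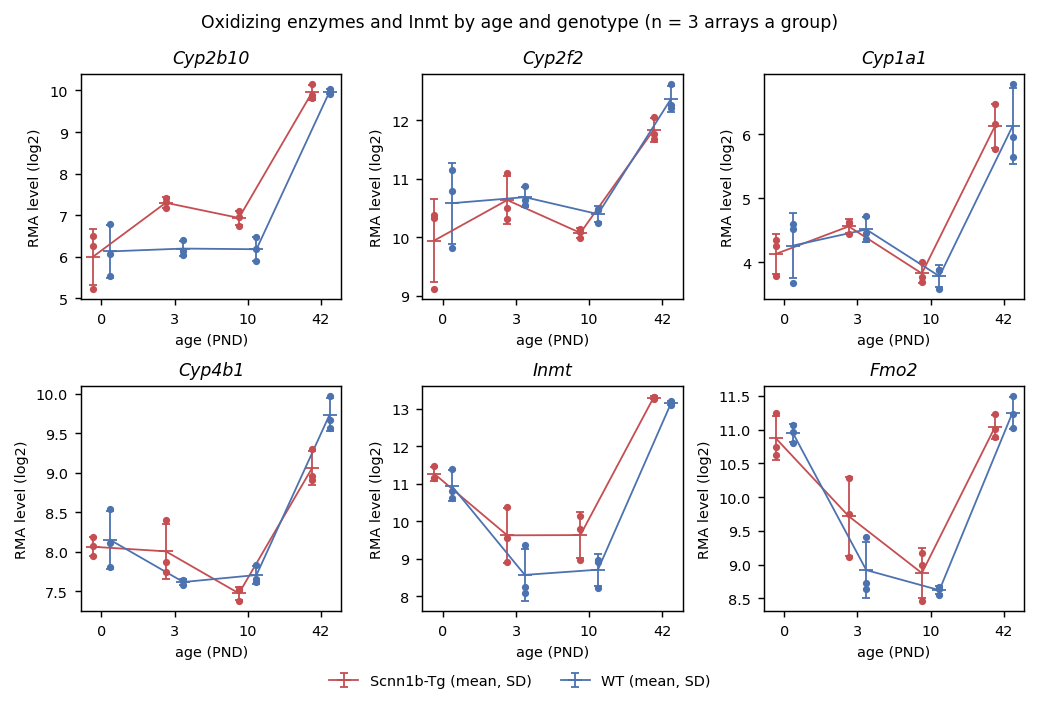
Array values (points), means and SD (bars, n = 3) of 6 members by age (evenly spaced) in *Scnn1b*-Tg, drawn left, and WT lungs, in RMA log2. *Cyp2b10*, *Cyp2f2*, *Cyp1a1* and *Cyp4b1* were highest at PND 42, while *Inmt* and *Fmo2* were also high at PND 0 and low between.

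*Inmt*, which methylates tryptamine and related indoles and is abundant in adult lung, was high at birth as well as at PND 42. In *Scnn1b*-Tg lungs its arrays read 11.48, 11.16 and 11.16 at PND 0, 10.39, 9.57 and 8.92 at PND 3, 9.79, 10.15 and 8.96 at PND 10 and 13.25, 13.32 and 13.32 at PND 42. In WT lungs they read 10.81, 10.61 and 11.41, then 8.24, 9.38 and 8.09, then 8.93, 8.22 and 8.98, and 13.16, 13.21 and 13.09. It was low at PND 3 and PND 10 and highest at PND 42 in both genotypes, and the arrays of PND 0 and PND 3 and those of PND 10 and PND 42 did not overlap. From PND 0 to PND 3 it fell, with a change of -1.64 (SE 0.34, limma with Benjamini-Hochberg adjusted p = 4.72e-04) in *Scnn1b*-Tg lungs and of -2.37 (SE 0.34, adjusted p = 8.32e-06) in WT lungs. From PND 10 to PND 42 it rose by 3.66 (SE 0.34, 12.7-fold, adjusted p = 1.45e-07) and 4.44 (SE 0.34, 21.7-fold, adjusted p = 6.06e-09). The difference of these rises, -0.78 (SE 0.48, adjusted p = 0.675 by limma), did not pass.

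*Fmo2*, the flavin monooxygenase best known from lung, had a like course. Its arrays read 11.25, 10.63 and 10.74 at PND 0, 10.29, 9.75 and 9.11 at PND 3, 9.17, 8.9994 and 8.46 at PND 10 and 11.22, 11.0023 and 10.89 at PND 42 in *Scnn1b*-Tg lungs. In WT lungs they read 10.97, 10.80 and 11.06, then 8.63, 9.40 and 8.72, then 8.67, 8.64 and 8.56, and 11.03, 11.50 and 11.23. Its change was -1.16 (SE 0.24) and -2.02 (SE 0.24) after birth and 2.16 (SE 0.24) and 2.63 (SE 0.24) after PND 10 in *Scnn1b*-Tg and WT lungs, with limma adjusted p = 5.26e-04, 9.40e-07, 1.23e-06 and 8.06e-08. The first *Scnn1b*-Tg fall was under 2-fold without PND 0 replicate 1 (-0.97) or without PND 3 replicate 3 (-0.86) of that genotype. The members called as falling from PND 0 to PND 3 and rising from PND 10 to PND 42 were *Inmt* and *Fmo2* in *Scnn1b*-Tg lungs and *Inmt*, *Fmo2* and *Cyp2d22* in WT lungs. The 2 steps share no arrays. *Fmo5* rose by 1.32 (SE 0.13, adjusted p = 4.33e-07) in *Scnn1b*-Tg lungs and changed by 0.95 (SE 0.13, adjusted p = 1.54e-05) in WT lungs, which is just under 2-fold, and *Fmo1* was not called (0.54 and 0.56, SE 0.24 each).

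Among the glutathione transferases 3 rose late in both genotypes. *Gsta3*, of the alpha class, read 9.52, 8.94 and 9.13 at PND 42 in *Scnn1b*-Tg lungs, against 7.13, 6.98 and 6.93 at PND 10, and 9.66, 9.92 and 9.72 in WT lungs, against 7.09, 7.08 and 7.52. The ages did not overlap. It rose by 2.18 (SE 0.24, limma with Benjamini-Hochberg adjusted p = 8.18e-07) and 2.53 (SE 0.24, adjusted p = 8.90e-08). *Gstm1* rose by 1.51 (SE 0.14, adjusted p = 1.45e-07) and 1.94 (SE 0.14, adjusted p = 2.28e-09), and *Gstm3* by 1.24 (SE 0.10, adjusted p = 1.94e-08) and 1.5038 (SE 0.10, adjusted p = 6.92e-10). *Gstp1*, the pi-class enzyme, was bright and not called, with changes of -0.19 (SE 0.12) in *Scnn1b*-Tg and 0.13 (SE 0.12) in WT lungs.

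*Gstm5* ran against its neighbours *Gstm1* and *Gstm3*. It lies with *Gstm7*, *Gstm6*, *Gstm3*, *Gstm2*, *Gstm1* and *Gstm4* in a run of 7 mu-class genes on chromosome 3 (107895854 to 108045179, GRCm38.p6). In *Scnn1b*-Tg lungs *Gstm5* read 7.16, 6.83 and 7.07 at PND 0, 8.19, 8.39 and 8.32 at PND 3, 8.29, 8.41 and 8.49 at PND 10 and 6.29, 6.63 and 6.38 at PND 42. In WT lungs *Gstm5* read 7.64, 7.20 and 7.28, then 8.60, 8.18 and 8.67, then 8.47, 8.39 and 8.57, and 7.02, 6.68 and 6.70. *Gstm5* was the only member called as falling between PND 10 and PND 42 in either genotype, with changes of -1.96 (SE 0.14, limma with Benjamini-Hochberg adjusted p = 4.42e-09) in *Scnn1b*-Tg and -1.68 (SE 0.14, adjusted p = 2.23e-08) in WT lungs. Between PND 0 and PND 3 it had risen by 1.28 (SE 0.14) and 1.11 (SE 0.14).

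**Figure D4:**
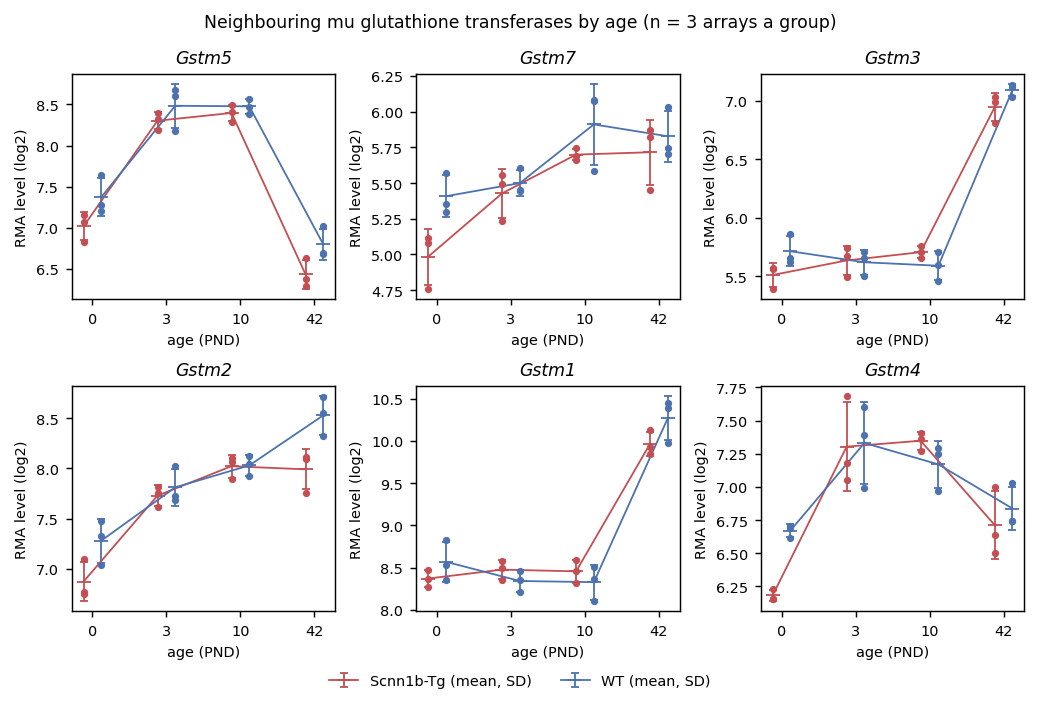
Array values (points), means and SD (bars, n = 3) of 6 of the 7 mu-class neighbours by age (evenly spaced) in *Scnn1b*-Tg, drawn left, and WT lungs, in RMA log2. *Gstm1* and *Gstm3* were called in no step before PND 10 and were high at PND 42, *Gstm5* was high at PND 3 and PND 10 and low at PND 0 and PND 42, and *Gstm4* had a shallower course of that kind.

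The carboxylesterases, which cleave esters and amides, had changes of 1 sign: all 16 were above 0 between PND 10 and PND 42 in both genotypes, from 0.05 to 2.11 in *Scnn1b*-Tg and from 0.06 to 1.76 in WT lungs, and 2 and 3 of them were called. Only 6 of the 16 exceeded 5 in a group mean. Changes above 0 were also found for 5 of 5 flavin monooxygenases, 13 of 16 *Cyp4* genes and 15 of 19 aldehyde dehydrogenases in each genotype. Other families were more mixed. In *Scnn1b*-Tg and WT lungs, 31 and 35 of 45 *Cyp2*, 8 and 13 of 18 *Gst* and 8 and 12 of 16 *Sult* genes were above 0. So were 4 and 2 of 8 *Ugt*, 5 and 3 of 6 *Cyp3* and 11 and 12 of the 16 P450 genes outside families 1 to 4. *Ces2g* read 7.33, 7.26 and 7.71 at PND 42 in *Scnn1b*-Tg lungs, against 5.50, 5.40 and 5.07 at PND 10, and 6.78, 6.96 and 7.27 in WT lungs, against 5.13, 4.68 and 5.93. Its rise was 2.11 (SE 0.24, limma with Benjamini-Hochberg adjusted p = 1.47e-06) and 1.76 (SE 0.24, adjusted p = 1.10e-05). *Ces1f* rose by 1.06 (SE 0.12) and 1.37 (SE 0.12), the first of which was 0.99 without *Scnn1b*-Tg PND 42 replicate 3. *Ces1g* was called in WT lungs alone, at 1.03 (SE 0.18), and fell short of 2-fold at 0.94 without WT PND 42 replicate 1 and also without replicate 3. *Ces1d*, a bright lung carboxylesterase, changed by 0.9957 (SE 0.14), just under 2-fold, in *Scnn1b*-Tg lungs and by 0.69 (SE 0.14) in WT lungs.

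Of the 19 aldehyde dehydrogenases 2 were called as rising in WT lungs and 0 in *Scnn1b*-Tg lungs. *Aldh3a1*, which oxidizes lipid aldehydes, read 5.83, 6.06 and 7.05 in *Scnn1b*-Tg and 6.96, 6.03 and 6.34 in WT lungs at PND 42. Its change was 0.81 (SE 0.27, adjusted p = 0.0279 by limma with Benjamini-Hochberg adjustment) and 1.38 (SE 0.27, adjusted p = 4.92e-04). *Aldh3b1* changed by 0.36 (SE 0.23) and 1.13 (SE 0.23, adjusted p = 6.72e-04). Without WT PND 42 replicate 3 the WT change was 0.99. *Aldh2*, the mitochondrial enzyme of acetaldehyde, changed by 0.60 (SE 0.15) and 0.87 (SE 0.15), both with an adjusted p below the threshold but under 2-fold. Of the *Ugt2* glucuronosyltransferases 0 of 8 and of the *Cyp3* genes 0 of 6 were called, and their changes lay between -0.22 and 0.42 in both genotypes.

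Several bright members were not called between PND 10 and PND 42. *Aldh1a7* lay between 9.35 and 10.22 in all group means and changed by 0.30 (SE 0.18) in *Scnn1b*-Tg and 0.50 (SE 0.18) in WT lungs. *Gstk1*, the kappa-class transferase, lay between 8.72 and 9.50 and changed by -0.40 (SE 0.13) and 0.05 (SE 0.13). *Sult1a1*, which sulfates phenols, changed by 0.74 (SE 0.21) and 0.47 (SE 0.21), and *Cyp20a1*, a P450 without a settled substrate, by -0.63 (SE 0.15) and -0.37 (SE 0.15). At the dim end, *Cyp1a2*, a major P450 of liver, stayed between 3.45 and 3.80 in all group means, although its neighbour *Cyp1a1* rose, and *Cyp2b19* stayed between 3.91 and 4.45.

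The place of called members in the genome was read for some runs, without a test. Members no more than 300000 bases apart formed 17 runs of 3 or more genes. On chromosome 7 the run of *Cyp2s1*, *Cyp2b10*, *Cyp2b13* and *Cyp2b9* (25802469 to 26210661) held 2 rises of 4 members in *Scnn1b*-Tg and 3 of 4 in WT lungs between PND 10 and PND 42. The next run there (26665227 to 27158564), with 7 members, held 1 rise in each genotype, *Cyp2f2*. The 12 *Cyp2c* genes on chromosome 19 and the 6 *Cyp2j* genes on chromosome 4 held 0, and the 11 *Ugt2* and *Sult1* genes on chromosome 5 held 0 in *Scnn1b*-Tg and 1, *Sult1d1*, in WT lungs. Other runs held rises too, such as 2 of the 7 *Gstm* genes and 1 of the 10 *Cyp2d* genes in each genotype. A group mean exceeded 5 for 3 of 4 members of the *Cyp2b10* run, but for 1 of the 12 *Cyp2c* and 2 of the 6 *Cyp2j* genes.

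Fewer members passed the 2-fold limit in the step after birth. Between PND 0 and PND 3, 6 members rose and 2 fell in *Scnn1b*-Tg lungs, 4.73% of the members, against 10.3% of all tested rows, 2.26% as rising and 8% as falling. In WT lungs 3 rose and 4 fell, 4.14% of the members, against 9.75% of all rows, 1.96% as rising and 7.79% as falling. With no fold limit more members passed in this step than in the last, and so did more of all rows. Of the 169 members, 75 in *Scnn1b*-Tg and 57 in WT lungs passed between PND 0 and PND 3, against 49.4% and 46.6% of all rows. Between PND 10 and PND 42, 39 and 48 members passed, against 29.8% and 30.4%. In each case the share of the members was below that of all rows. Whatever the size of the change, the arrays of PND 3 lay wholly above those of PND 0 for 94 members (55.6%) in *Scnn1b*-Tg and 67 (39.6%) in WT lungs, against 33.8% and 32.5% of all rows, and wholly below for 11 (6.51%) and 17 (10.1%), against 27.9% and 27.1%. *Gstt1* of the theta class read 6.86, 7.30 and 7.33 at PND 3 and 5.79, 6.36 and 6.23 at PND 0 in *Scnn1b*-Tg lungs, and 7.5972, 7.21 and 7.68 against 6.57, 6.49 and 6.34 in WT lungs. It rose by 1.03 (SE 0.15) in both genotypes, with adjusted p = 1.22e-05 and 1.33e-05 by limma. Each call rested on a change close to 2-fold and was lost without any of 3 arrays, at changes of at least 0.86 and 0.94.

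*Gstt1* was also the only member called between PND 3 and PND 10. It rose by 1.03 (SE 0.15, limma with Benjamini-Hochberg adjusted p = 8.31e-04) in *Scnn1b*-Tg lungs, or by 0.88 without PND 3 replicate 1. This is 0.592% of the members, against 1.09% of all rows called, 0.817% as rising and 0.271% as falling. In WT lungs 0 members were called, against 1.29% of all rows, 1.05% as rising and 0.239% as falling, while 5 members had an adjusted p of at most 0.05 at any fold and 17 an unadjusted p below 0.05.

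Other members called between PND 0 and PND 3 were called in 1 genotype. *Gsto1*, an omega-class transferase, rose by 1.08 (SE 0.21) in WT lungs, or by 0.83 without PND 3 replicate 3, and *Aldh6a1*, of valine breakdown, fell by 1.16 (SE 0.17) there. In *Scnn1b*-Tg lungs *Gsta4*, which conjugates hydroxynonenal, rose by 1.24 (SE 0.19), *Aldh3b3* by 1.16 (SE 0.18), *Gstm4* by 1.12 (SE 0.16) and *Cyp2b10* by 1.31 (SE 0.27), with limma adjusted p between 7.42e-06 and 3.87e-04. Without PND 3 replicate 3 the *Gstm4* change was 0.93, and without PND 0 replicate 1 that of *Cyp2b10* was 0.92, both under 2-fold. The difference between the genotypes passed for 0 members in this step and in that of PND 3 to PND 10, against 0% and 0.00918% of all rows, with 8 members in each at an unadjusted p below 0.05 in limma.

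Between the genotypes few members differed. At PND 0, 3 and 10, limma called 0 of 169, against 0.0138%, 0.0184% and 0.151% of all rows (0.0138%, 0.00918% and 0.106% higher, 0%, 0.00918% and 0.0459% lower), with 9, 14 and 11 members at an unadjusted p below 0.05. At PND 42 it called 1, 0.592% of the members, against 0.34% of all rows, 0.326% as higher and 0.0138% as lower. Counts of members whose arrays did not overlap were uneven. *Scnn1b*-Tg arrays lay wholly above WT arrays for 1 member and wholly below for 20 at PND 0 (0.592% and 11.8%, against 5.51% and 7% of all rows). At PND 3 they lay above for 19 and below for 2 (11.2% and 1.18%, against 5.39% and 5.91%). At PND 10 the counts were 10 and 16 (5.92% and 9.47%, against 8.67% and 8.58%), and at PND 42 they were 5 and 19 (2.96% and 11.2%, against 6.67% and 4.06%).

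*Sult1d1*, a sulfotransferase that in mouse acts on catecholamines and other phenols, was the member called at PND 42. Its arrays there read 5.74, 5.22 and 6.21 in *Scnn1b*-Tg lungs and 7.41, 6.59 and 6.77 in WT lungs, without overlap. The gene (chromosome 5, 87554650 to 87569006) was lower in *Scnn1b*-Tg lungs by 1.20 (SE 0.20, 2.3-fold, limma with Benjamini-Hochberg adjusted p = 0.00192). At PND 10 the genotypes overlapped, at 5.02, 4.82 and 4.68 in *Scnn1b*-Tg and 4.80, 4.46 and 4.85 in WT lungs. The change from PND 10 to PND 42 was 0.88 (SE 0.20) in *Scnn1b*-Tg and 2.22 (SE 0.20) in WT lungs, and differed by -1.33 (SE 0.28, adjusted p = 0.0441), a call lost without eBayes, limma's moderation of the variance (adjusted p = 0.121), in a fit to only the arrays compared (adjusted p = 0.107) and without any 1 of 9 of the 12 arrays. Without WT PND 42 replicate 1 the PND 42 difference was -0.96, and without *Scnn1b*-Tg PND 42 replicate 2 it was -0.95, under 2-fold in both cases. In a fit to the arrays of PND 42 alone its adjusted p was 0.137.

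*Cyp2s1*, a P450 of epithelia outside the liver, was the other member whose late change differed. Its arrays read 8.41, 8.93 and 8.69 at PND 42 in *Scnn1b*-Tg lungs, against 8.23, 7.83 and 7.85 at PND 10, and 9.37, 9.12 and 9.10 at PND 42 in WT lungs, against 7.17, 7.24 and 7.38 at PND 10. The *Scnn1b*-Tg arrays thus lay above the WT arrays at PND 10 and below them at PND 42. The changes of *Cyp2s1* were 0.71 (SE 0.16) and 1.93 (SE 0.16), and differed by -1.22 (SE 0.22, limma with Benjamini-Hochberg adjusted p = 0.0172). This call was lost without eBayes (adjusted p = 0.06002) and without any 1 of 3 arrays, WT PND 10 replicates 1 and 2 and *Scnn1b*-Tg PND 10 replicate 1 (adjusted p = 0.0686, 0.0578 and 0.0601). Together with *Sult1d1* this is 1.18% of the members, against 0.225% of all rows, 0.193% with a more positive and 0.0321% with a more negative change in *Scnn1b*-Tg lungs. For *Cyp2s1* the genotype difference at a single age was under 2-fold, 0.71 (SE 0.16, adjusted p = 0.0468) at PND 10 and -0.52 (SE 0.16, adjusted p = 0.157) at PND 42.

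**Figure D5:**
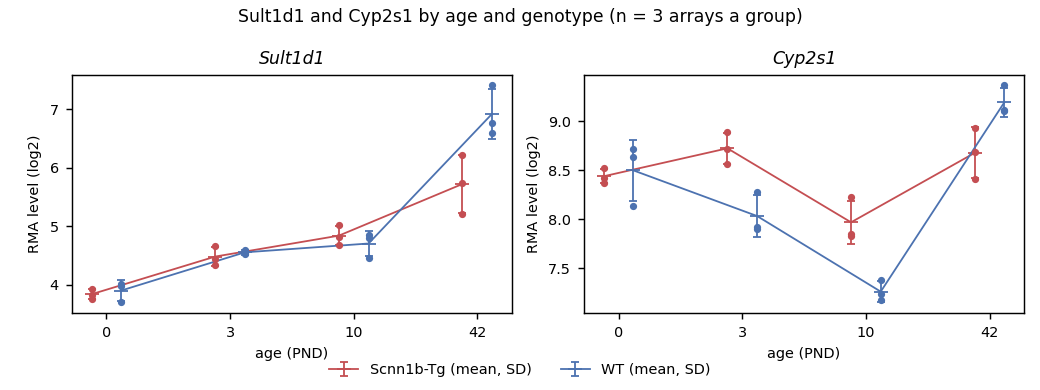
Array values (points), means and SD (bars, n = 3) of *Sult1d1* and *Cyp2s1* by age (evenly spaced) in *Scnn1b*-Tg, drawn left, and WT lungs, in RMA log2. At PND 42 every *Scnn1b*-Tg point lies below every WT point in both panels, and at PND 10 the *Cyp2s1* points of *Scnn1b*-Tg lungs lie above those of WT lungs.

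The members nearest to a call between the genotypes missed it by p or by fold. At PND 3 *Cyp2d22* averaged 6.53 in *Scnn1b*-Tg and 5.61 in WT lungs, a difference of 0.93 (SE 0.175, limma with Benjamini-Hochberg adjusted p = 0.057), and *Cyp2b10* averaged 7.30 in *Scnn1b*-Tg and 6.1975 in WT lungs, a difference of 1.10 (SE 0.27, adjusted p = 0.247). At PND 10 *Aldh3b1* averaged 7.66 in *Scnn1b*-Tg and 6.79 in WT lungs (adjusted p = 0.108 by limma) and *Ces1d* 9.54 in *Scnn1b*-Tg and 10.07 in WT lungs (adjusted p = 0.118). Without *Scnn1b*-Tg PND 3 replicate 3 the *Cyp2d22* difference was 1.10 and was called, and without *Scnn1b*-Tg PND 10 replicate 2 the *Aldh3b1* difference was 1.06 and was called. At PND 42 *Cyp4f15* differed by -0.52 (SE 0.11) with adjusted p = 0.0155 in limma, under 2-fold. *Gstm2* averaged 7.99 in *Scnn1b*-Tg and 8.53 in WT lungs at that age (adjusted p = 0.0686 by limma), and *Cyp39a1*, an oxysterol hydroxylase, 7.19 in *Scnn1b*-Tg and 7.65 in WT lungs (adjusted p = 0.056).

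Markers of other cells moved with genotype. At PND 42 the sums of 3 of 13 lists lay wholly higher in *Scnn1b*-Tg arrays (macrophage, goblet cell and alveolar fibroblast) and 1 wholly lower (smooth muscle). The log2 levels of the 5 macrophage markers summed to between 37.20 and 41.80 in *Scnn1b*-Tg arrays and between 32.43 and 34.20 in WT arrays, with *Cd68*, *Mrc1* and *Itgax* called as higher. The 5 goblet cell markers summed to between 35.75 and 38.86 in *Scnn1b*-Tg and between 28.91 and 29.70 in WT arrays, with *Clca1* and *Muc5ac* called. The 6 alveolar fibroblast markers summed to between 51.95 and 52.18 in *Scnn1b*-Tg and between 50.16 and 51.54 in WT arrays, and the 4 smooth muscle markers to between 31.37 and 32.16 in *Scnn1b*-Tg and between 32.39 and 35.22 in WT arrays, with none called. Among the alveolar fibroblast markers *Plin2* differed most, averaging 9.77 in *Scnn1b*-Tg and 8.97 in WT lungs. *Tcf21* (8.82 and 8.90) and *Limch1* (8.50 and 8.54) averaged lower in *Scnn1b*-Tg lungs. The 4 club cell markers summed to between 38.76 and 40.27 in *Scnn1b*-Tg and between 39.71 and 40.95 in WT arrays, and none was called between the genotypes. At PND 10 *Cd68* was higher in *Scnn1b*-Tg lungs by 1.13 and *Scgb3a1* by 1.65, and *Clca1* and *Muc5ac* were lower, at -2.47 and -1.08. The other club cell markers were not called at PND 10, at -0.66 for *Scgb1a1*, whose *Scnn1b*-Tg arrays lay wholly below WT, -0.20 for *Scgb1c1* and 0.11 for *Scgb3a2*. In all, 3 lists lay wholly higher in *Scnn1b*-Tg arrays at PND 10 (club, ciliated and macrophage) and 4 wholly lower (endothelium, alveolar fibroblast, matrix fibroblast and goblet). The part of these cells in the *Sult1d1* and *Cyp2s1* differences was not tested.

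Markers also moved with age. Of the 13 lists, the sums of 7 lay wholly higher at PND 42 than at PND 10 in *Scnn1b*-Tg lungs (club, alveolar type 2 (AT2), alveolar type 1 (AT1), alveolar fibroblast, matrix fibroblast, macrophage and goblet cells) and of 5 in WT lungs (club, ciliated, AT2, AT1 and macrophage). Smooth muscle and erythroid sums lay wholly lower in *Scnn1b*-Tg lungs and erythroid and goblet cell sums in WT lungs. Of the 4 erythroid genes only 1, *Alas2*, had a row, so that the erythroid sum was the level of 1 gene. The sum of the 5 AT1 markers lay between 46.70 and 48.68 at PND 42 and between 44.53 and 45.30 at PND 10 in *Scnn1b*-Tg lungs, and between 46.63 and 48.24 at PND 42 and between 44.68 and 45.06 at PND 10 in WT lungs. Between PND 10 and PND 42, 1 of 4 club cell markers was called as rising in each genotype, *Scgb1a1* in *Scnn1b*-Tg and *Scgb3a1* in WT lungs, and the club cell sum at PND 10 lay between 37.95 and 38.54 in *Scnn1b*-Tg and between 36.89 and 37.94 in WT arrays. Of 4 matrix fibroblast markers *Dcn* rose, by 1.85 in *Scnn1b*-Tg and 2.22 in WT lungs, while *Col1a1*, *Col1a2* and *Col3a1* were not called, at -0.05, -0.18 and 0.15 in *Scnn1b*-Tg and -0.76, -0.85 and -0.58 in WT lungs. The matrix fibroblast sum lay between 37.54 and 39.93 at PND 42 and between 36.78 and 37.30 at PND 10 in *Scnn1b*-Tg lungs, and between 37.20 and 38.50 at PND 42 and between 37.56 and 38.13 at PND 10 in WT lungs. The alveolar fibroblast markers did not move together. *Tcf21* averaged 8.82 at PND 42 and 10.42 at PND 10 in *Scnn1b*-Tg lungs, and 8.90 and 10.37 in WT lungs. In *Scnn1b*-Tg lungs *Col13a1* averaged 5.24 at both ages, and *Pdgfra*, *Limch1*, *Npnt* and *Plin2* averaged higher at PND 42. Of these *Pdgfra* differed most, at 9.65 against 7.55. The part of cell numbers in the late rises was not tested.

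Between PND 0 and PND 3, the step in which *Inmt* and *Fmo2* fell, the sum of the 6 alveolar fibroblast markers lay between 49.16 and 50.83 at PND 3 and between 54.57 and 55.54 at PND 0 in *Scnn1b*-Tg lungs, and between 48.69 and 49.46 at PND 3 and between 54.19 and 55.4976 at PND 0 in WT lungs. The 5 endothelium markers summed to between 42.82 and 44.05 at PND 3 and between 45.87 and 47.81 at PND 0 in *Scnn1b*-Tg lungs, and to between 42.88 and 43.85 at PND 3 and between 47.34 and 49.02 at PND 0 in WT lungs. Both lists were wholly lower at PND 3 in both genotypes, with 3 of 6 and 3 of 5 markers called as lower in *Scnn1b*-Tg and 4 of 6 and 2 of 5 in WT lungs. In WT lungs the ciliated, AT2 and matrix fibroblast sums were also wholly lower, and club, macrophage and goblet cell sums were wholly higher in both genotypes, with neutrophil sums in *Scnn1b*-Tg lungs. Their part in the *Inmt* and *Fmo2* falls was not tested.

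Genes that work with these enzymes were read from lists of 84 genes, of which 80 had a row. Between PND 10 and PND 42, 8 rose and 2 fell in *Scnn1b*-Tg lungs, 12.5% of the 80, against 5.17% of all rows called. In WT lungs 11 rose and 2 fell, 16.2% of the 80, against 5.54% of all rows. *Ephx1*, the microsomal epoxide hydrolase that opens P450 products, rose by 1.49 (SE 0.125, limma with Benjamini-Hochberg adjusted p = 3.34e-08) and 1.92 (SE 0.125, adjusted p = 5.63e-10). *Aox3* and *Aox1*, aldehyde oxidases, rose by 2.33 (SE 0.23) and 1.67 (SE 0.18) in *Scnn1b*-Tg and by 2.33 (SE 0.23) and 1.62 (SE 0.18) in WT lungs. *Papss2*, which makes the sulfate donor of the sulfotransferases, rose by 1.31 (SE 0.16) and 1.52 (SE 0.16). *Pon1*, *Gpx3*, *Adh7* and *Slco2a1* also rose in both genotypes, and *Cyb5r3*, *Abcc3* and *Akr1c14* in WT lungs alone. *Adh1*, an alcohol dehydrogenase, and *Tpmt*, a thiopurine methyltransferase, fell in both genotypes, at -1.06 (SE 0.18) in *Scnn1b*-Tg and -1.08 (SE 0.18) in WT lungs for *Adh1* and -1.22 (SE 0.14) for *Tpmt* in each.

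Few regulators were called. Of 18 genes of receptors and their partners, 0 were called between PND 10 and PND 42, against 5.17% of all rows in *Scnn1b*-Tg and 5.54% in WT lungs. *Ahr* alone was called between PND 0 and PND 3, where 10.3% and 9.75% of all rows were called. Its changes were -1.49 (SE 0.14, limma with Benjamini-Hochberg adjusted p = 3.26e-08) in *Scnn1b*-Tg and -1.27 (SE 0.14, adjusted p = 3.18e-07) in WT lungs. *Nr1i3*, the constitutive androstane receptor, and *Nr1i2*, the pregnane X receptor, stayed below 5 in every group mean, at most 4.33 and 3.79 in *Scnn1b*-Tg and 4.42 and 3.90 in WT lungs. *Nfe2l2*, the regulator of antioxidant response elements, averaged 8.89 in *Scnn1b*-Tg and 8.52 in WT lungs at PND 42. Between the genotypes 0 of the 80 genes were called at any age, with 2, 10, 10 and 15 of them at an unadjusted p below 0.05 at PND 0, 3, 10 and 42. Of all rows 0.0138%, 0.0184%, 0.151% and 0.34% were called at these ages. With no fold limit 1 of the 80 passed at PND 10 and 2 at PND 42, against 0.427% and 0.909% of all rows. At PND 42 *Scnn1b*-Tg arrays lay wholly above WT arrays for 8 of the 80 and wholly below for 5, against 6.67% and 4.06% of all rows.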

How the data were processed

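Whole-transcript Affymetrix mouse arrays measured RNA of 24 left lung lobe samples. Per the labels, the authors normalised the arrays by RMA in Partek 6.5 and deposited log2 values, which were used as given. Of 35556 array rows, 21789 name 1 gene and were tested, 1621 name several genes and 12146 none. Gene names come from the platform annotation and positions and promoters from RefSeq tables of GRCm38.p6.

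Means of the 8 groups were fitted in limma 3.58.1 (R 4.3.3, with statmod 1.5.0) with 16 residual degrees of freedom, and 13 contrasts were taken. They set the genotypes side by side per age, neighbouring ages per genotype, and the age steps of the genotypes against each other. Benjamini-Hochberg adjustment ran over all tested rows within a contrast, and a call needed an adjusted p of at most 0.05 and 2-fold. Simulated data were used to test this step. By rule the text could name up to 8 called members with the largest rise and up to 8 with the largest fall per step, members called or with the lowest p between genotypes, the 3 brightest of each family, and enzymes known from lung. Other members and the accompanying genes were named after their values were seen. Members and gene lists were chosen with earlier results of these data known.

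Alternatives were a repeated quantile normalisation, subtraction of array medians, other fold limits, other variance models, other choices of rows, a fit to only the arrays compared, a replicate block and each array left out in turn. Array values have no counts, so the number of arrays limits the precision.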

Additional observations from a re-analysis of the deposited data

Results flagged for a closer look

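The change of *Sult1d1* from PND 10 to PND 42 differed between the genotypes by -1.33 (SE 0.28, limma with Benjamini-Hochberg adjusted p = 0.0441), and that of *Cyp2s1* by -1.22 (SE 0.22, adjusted p = 0.0172), both smaller in *Scnn1b*-Tg lungs. With each of the 12 arrays left out in turn, the *Sult1d1* difference lay between -1.58 and -1.08 and the *Cyp2s1* difference between -1.35 and -1.09. The call was lost without any 1 of 9 arrays for *Sult1d1* and without any 1 of 3 arrays for *Cyp2s1*, which were WT PND 10 replicates 1 and 2 and *Scnn1b*-Tg PND 10 replicate 1.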

How the results depend on the processing

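The 79 results for single named genes, not all of them called, were each read under the alternatives. Over the pairs of a result and a setting, 1264 stayed as they were, called or not called. In 40 pairs a call was lost, in 6 gained and in 0 reversed. Of the 79 results, 15 lost their call without some single array. With no fold limit, genotype changed 1 member at PND 10 and 2 at PND 42, and the 3 intervals changed 75, 6 and 39 members in *Scnn1b*-Tg and 57, 5 and 48 in WT lungs. At 1.5-fold these were 1 member at PND 10, 27, 4 and 31 in *Scnn1b*-Tg and 21, 4 and 33 in WT lungs. Without eBayes 0 members differed in their change from PND 10 to PND 42. In fits to only the arrays compared this was 1, and 0 members differed by genotype at PND 42. With 1 array left out, counts of changed members lay between 5 and 11, 0 and 2, and 17 and 19 for the 3 intervals in *Scnn1b*-Tg lungs, and between 5 and 8, 0 and 0, and 20 and 22 in WT lungs. By genotype they lay between 0 and 0 at PND 0 and between 0 and 1 at PND 3, 10 and 42. Differences of the intervals lay between 0 and 0, 0 and 1, and 0 and 2. Subtracting array medians moved the median of all rows between PND 0 and PND 3 to 0.209 in *Scnn1b*-Tg and 0.157 in WT lungs, against 0.0662 and 0.0641, and took *Ces1f* in *Scnn1b*-Tg and *Ces1g* and *Cyp4f15* in WT lungs to 0.99 between PND 10 and PND 42, under 2-fold. Replicate numbers were not taken as pairs, since same-numbered arrays correlated between -0.255 and 0.299 and only 2 of 10 contrasts had every pair over 0.1. With the replicate number as a block the counts were those of the fit without it: 0, 0, 0 and 1 by genotype, 8, 1 and 17 in *Scnn1b*-Tg and 7, 0 and 21 in WT lungs, and 0, 0 and 2 for differences of the intervals. The causes of these changes were not tested.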
